A study of Mus musculus with 21 samples.

Results

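The genes of cholesterol synthesis, the SREBP2 system that controls them and a few genes of sterol uptake and transport were followed in the livers of mice fed diets that lacked a single amino acid. The set holds 27 genes of the 46078 rows in the count table. They were found by symbol in the GENCODE M21 annotation (GRCm38), and all 27 passed the filter on low counts that left 14370 genes for testing. They comprise 8 genes of the mevalonate and isoprenoid steps, 12 of the squalene and sterol steps, 4 of SREBP2 control and 3 of uptake control and sterol transport.

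The animals either lacked *Cse* (129/C57BL/6 background, KO here), whose official symbol is *Cth* and which encodes cystathionine γ-lyase, or belonged to a comparison genotype labelled WT. This enzyme makes cysteine from cystathionine, so a knockout must eat its cysteine. The study's own text describes the comparison animals as Cse+/-, so WT is used here as a label and not as a statement that both alleles were intact. Every group was calorie restricted, male and at least 9 weeks old. The control diet (CTR) was the defined amino acid diet 5CC7, and the depleted diets lacked cysteine (noCys) or tryptophan (noTrp), with the other amino acids raised to make up for it. Among KO animals, 4 libraries came from CTR, 3 from noCys and 5 from noTrp. Among WT animals, 3 came from CTR, 4 from noCys and 2 from noTrp.

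Libraries held 8889951 to 27230852 counts, of which the cholesterol genes took 0.108% to 0.290%. *Cth* was at 108 to 452 CPM in WT and at 6.34 to 14.99 CPM in KO. CPM are read counts scaled to library size with TMM factors, the unit of all levels below. Every library labelled KO was thus far below every library labelled WT, which does not tell intact from Cse+/- animals. Ribosomal RNA, counting nuclear and mitochondrial genes, took 8.38% of counts in WT CTR 3 and 0.412% to 1.25% in the other libraries. Summed over 8 hepatocyte markers, the level was 49698 to 116441 CPM, against at most 4.18 CPM for 7 skeletal muscle markers and 1.23 CPM for 7 pancreas markers. In bulk liver, fewer cells of a type and less RNA per cell cannot be told apart. The labels number the libraries as biological replicates without tying them to animals, so p-values measure the spread between these libraries.

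Cholesterol is built from acetyl-CoA, first through mevalonate to isoprenoid units, which are joined to squalene, closed to lanosterol and trimmed to cholesterol. The pathway is controlled by SREBP2, a transcription factor held in the endoplasmic reticulum by SCAP and the INSIG proteins while sterols are plentiful. When sterols run low, SCAP escorts SREBP2 to the Golgi, where it is cut, and its released part enters the nucleus and switches on the genes of the pathway. *Insig1* is itself a target of SREBP2, whereas *Insig2* in liver is known for its response to feeding and insulin.

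Promoter sequences are shown for *Hmgcs1* and *Mvd*, the 2 genes with the largest falls in KO noCys against KO CTR among those whose window held no annotated exon, and for *Insig1* and *Insig2*, which differed in the data below. SREBP2 is known to bind sterol regulatory elements beside sites for the partner factors NF-Y (the CCAAT box) and SP1 (the GC box). The bases before the RefSeq start site (up to 250, GRCm38.p6) were searched on both strands for TCACNCCAC (SRE core), CCAAT and GGGCGG. Matches of different motifs may share end bases. Of the 27 genes, 22 had a window in the RefSeq table, and no entry was found for *Fdps*, *Fdft1*, *Sqle*, *Npc1* and *Stard4*. A CCAAT match was present in 19 of the 22 windows, against 33.8% of the 32851 windows in the table. Those cover 27025 symbols, some with several windows, and were not limited to genes tested here, while each member had 1 window. The shares of all windows are thus no matched background. GGGCGG was present in 18 of 22 (32.7% of all windows) and TCACNCCAC in 1 of 22, that of *Hmgcs1* (1.05% of all windows). A match is a run of letters and not a shown binding site. Below, capitals mark matches to any of the 3 motifs, each sequence runs 5′ to 3′ on the strand of its gene, and *Insig1* ends where an annotated exon begins. *Hmgcs1* is at chr13:119690101-119690350 (plus strand), *Mvd* at chr8:122443423-122443672 (minus), *Insig1* at chr5:28071162-28071362 (plus) and *Insig2* at chr1:121332590-121332839 (minus).
Hmgcs1: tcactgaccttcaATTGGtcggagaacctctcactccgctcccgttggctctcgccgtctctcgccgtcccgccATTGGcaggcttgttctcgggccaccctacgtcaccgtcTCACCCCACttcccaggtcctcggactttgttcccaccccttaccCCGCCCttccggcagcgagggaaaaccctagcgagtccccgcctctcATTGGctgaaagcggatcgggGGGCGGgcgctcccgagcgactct
Mvd: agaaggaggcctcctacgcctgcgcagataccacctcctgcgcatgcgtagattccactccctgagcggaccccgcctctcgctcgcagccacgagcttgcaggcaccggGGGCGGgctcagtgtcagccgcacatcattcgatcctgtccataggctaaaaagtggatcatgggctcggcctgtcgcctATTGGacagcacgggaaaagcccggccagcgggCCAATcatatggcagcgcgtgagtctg
Insig1: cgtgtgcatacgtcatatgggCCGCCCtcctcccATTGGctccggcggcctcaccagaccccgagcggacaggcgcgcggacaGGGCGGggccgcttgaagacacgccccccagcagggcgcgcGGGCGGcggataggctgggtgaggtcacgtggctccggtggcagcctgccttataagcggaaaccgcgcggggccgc
Insig2: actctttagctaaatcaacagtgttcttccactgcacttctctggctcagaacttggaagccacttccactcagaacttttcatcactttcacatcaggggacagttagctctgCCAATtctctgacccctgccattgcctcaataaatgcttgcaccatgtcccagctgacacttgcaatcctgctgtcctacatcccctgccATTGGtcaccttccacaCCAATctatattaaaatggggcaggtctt
The *Hmgcs1* window held all 3 kinds of match, with TCACCCCAC as its SRE core. *Insig1* held 1 CCAAT and 3 GGGCGG matches in 201 bases. *Insig2* held 3 CCAAT matches and no match to the other motifs.

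On the control diet the WT livers expressed the steps at very unequal levels per length of transcript. *Ebp*, the sterol isomerase, was highest at 101.9 ± 5.56 CPM per kilobase of exon (SD, n = 3), followed by *Sc5d* (48.1 ± 8.12), which puts a double bond into the sterol ring, and *Insig1* (45.3 ± 8.71). At the low end were *Idi1* (1.28 ± 0.15), the isopentenyl diphosphate isomerase, *Ggps1* (1.14 ± 0.19), which makes the geranylgeranyl group for protein prenylation, and *Lbr* (0.56 ± 0.064), a sterol reductase of the nuclear envelope. Between neighbours in this order the libraries overlapped in 22 of 26 pairs, so only a coarse ranking can be read.

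**Figure D1:**
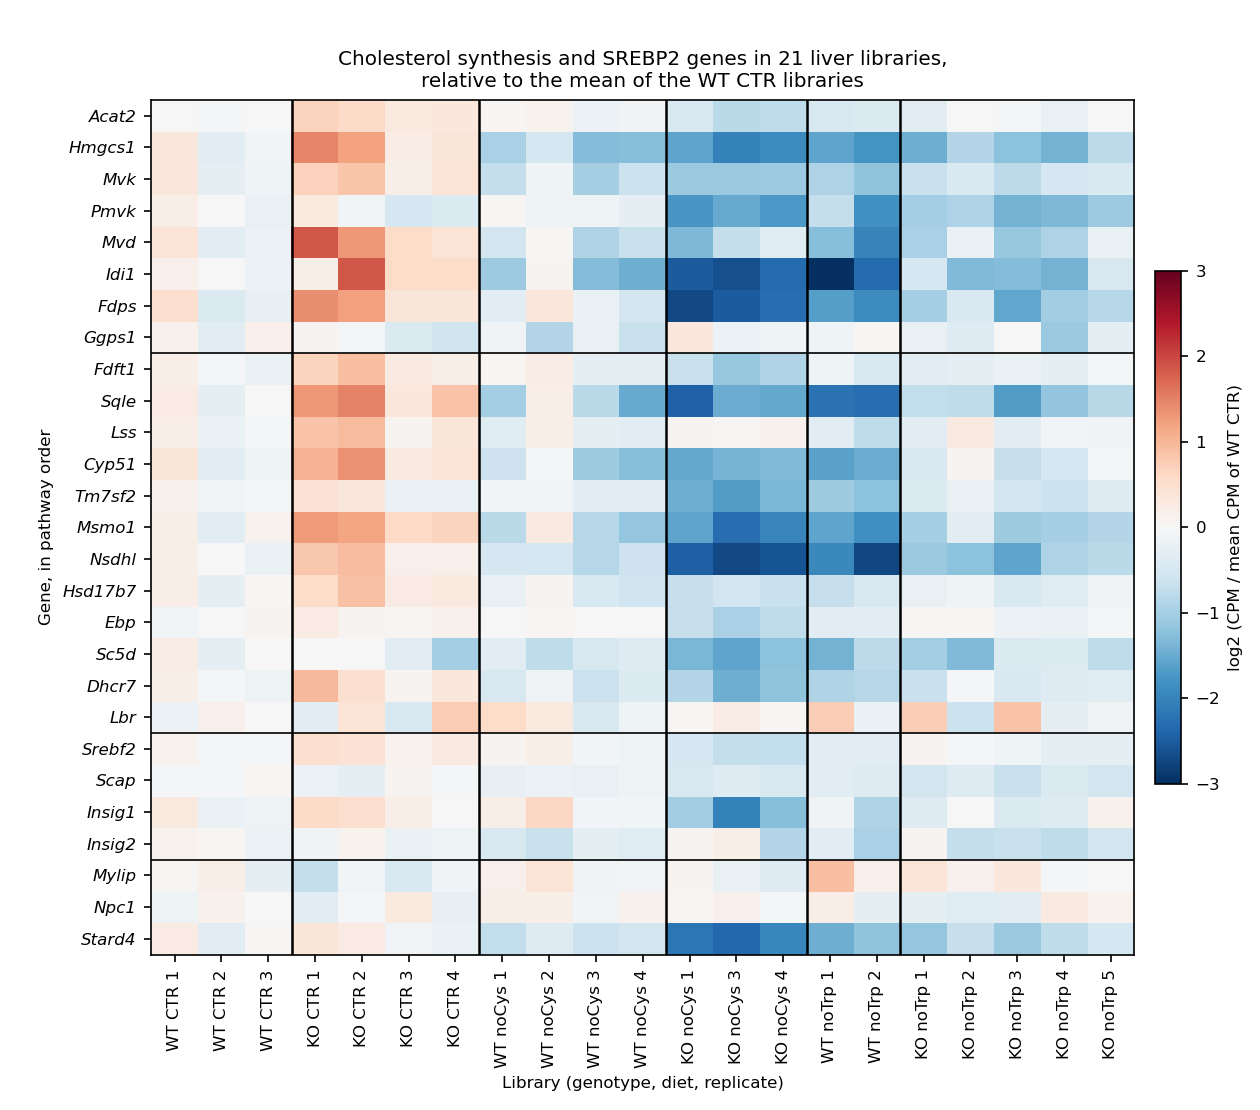
Each row is a gene in pathway order and each column a library; colour gives log2 of its CPM over the mean of the WT CTR libraries, and lines separate the groups and the 4 gene classes. Libraries KO CTR 1 and 2 are reddest, while the KO noCys and WT noTrp blocks are bluest, with *Ggps1*, *Lbr*, *Mylip* and *Npc1* near white or of mixed colour.

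Across the 6 groups, 19 of the 27 genes had their highest mean in KO CTR. The lowest mean was in KO noCys for 16 genes and in WT noTrp for 6. The share of all counts taken by the set was 0.244% ± 0.051 in KO CTR (SD, n = 4), 0.189% ± 0.028 in WT CTR (n = 3), 0.153% ± 0.016 in WT noCys (n = 4) and 0.148% ± 0.011 in KO noTrp (n = 5). It was 0.119% ± 0.0025 in WT noTrp (n = 2) and 0.109% ± 0.0023 in KO noCys (n = 3).

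Removing cysteine from the diet of knockouts was the setting in which the pathway fell furthest. Of the 27 genes, 21 fell in KO noCys against KO CTR and none rose, where 9.59% of all tested genes were called lower. Calls throughout are at an adjusted p under 0.05 in edgeR's quasi-likelihood test over all tested genes. The median log2 fold change was -1.51 over the 27 genes and 0.00 over all genes tested. In all 21 genes every KO noCys library was below every KO CTR library, which held for 13.2% of all genes. The falls reached 10.9-fold in *Idi1* and 10.4-fold in *Fdps*.

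In the mevalonate and isoprenoid steps, 7 of 8 genes fell. *Hmgcs1*, the cytosolic HMG-CoA synthase, was at 398, 334, 169.7 and 186 CPM in KO CTR, against 47.9, 35.5 and 38.4 CPM in KO noCys. The lowest control library was thus far above the highest depleted one, and the log2 fold change was -2.75 (SE 0.29, adjusted p = 3.52e-06). *Idi1* was at 5.14, 16.3, 6.54 and 6.58 CPM in KO CTR, against 0.79, 0.71 and 0.90 CPM in KO noCys. It fell by 3.45 on the log2 scale, used for all falls and rises below (SE 0.46, adjusted p = 3.72e-05), from a low level and with 1 control library far above the rest. *Fdps*, the farnesyl diphosphate synthase, was at 15.7, 13.8, 7.56 and 7.68 CPM against 0.90, 1.05 and 1.22 CPM and fell by 3.38 (SE 0.35, adjusted p = 2.87e-06).

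The remaining mevalonate genes fell less. *Mvd*, the mevalonate diphosphate decarboxylase, fell by 1.89 (SE 0.35), *Mvk*, mevalonate kinase, fell by 1.65 (SE 0.19), *Pmvk*, phosphomevalonate kinase, fell by 1.51 (SE 0.22) and *Acat2*, the cytosolic acetoacetyl-CoA thiolase, fell by 1.14 (SE 0.12). The odd one out was *Ggps1*, at 5.71, 5.17, 3.94 and 3.56 CPM in KO CTR, against 6.65, 4.72 and 4.88 CPM in KO noCys. Its libraries overlapped, and the log2 fold change was 0.21 (SE 0.24, adjusted p = 0.58). Its enzyme takes farnesyl diphosphate off the path to sterols.

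In the squalene and sterol steps, 10 of 12 genes fell. *Nsdhl*, a sterol dehydrogenase that removes carbon from lanosterol, was at 63.3, 69.4, 40.6 and 40.1 CPM in KO CTR, against 6.65, 5.58 and 6.04 CPM in KO noCys. The groups lay far apart, and the log2 fold change of -3.15 had the smallest adjusted p of the set (SE 0.24, adjusted p = 7.79e-08). *Msmo1*, the sterol methyl oxidase that works beside it, was at 242, 229, 153 and 158 CPM against 33.7, 20.6 and 25.6 CPM and fell by 2.89 (SE 0.30, adjusted p = 3.45e-06). *Sqle*, the squalene epoxidase, was at 67.9, 77.3, 34.2 and 49.7 CPM against 5.08, 9.77 and 9.45 CPM and fell by 2.79 (SE 0.36, adjusted p = 2.98e-05). *Cyp51*, the lanosterol demethylase, was at 147.8, 184.6, 85.9 and 94.3 CPM against 24.6, 27.02 and 28.3 CPM and fell by 2.27 (SE 0.30, adjusted p = 3.18e-05). In each of these genes KO CTR 1 and 2 stood above KO CTR 3 and 4, and all 4 stood above the depleted livers.

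Smaller falls were measured in *Dhcr7* (log2 fold change -1.68, SE 0.19), the last reductase of one branch, *Tm7sf2* (-1.63, SE 0.15), a sterol reductase, and *Fdft1* (-1.43, SE 0.17), the squalene synthase. *Hsd17b7* (-1.17, SE 0.17), *Sc5d* (-1.11, SE 0.24) and *Ebp* (-0.93, SE 0.093) fell as well. *Lss* and *Lbr* did not pass the test. *Lss*, which closes squalene oxide to lanosterol, was at 41.5, 44.7, 24.6 and 29.5 CPM in KO CTR, against 24.4, 23.5 and 25.2 CPM in KO noCys, and its log2 fold change was -0.53 (SE 0.19, adjusted p = 0.0559). Here the depleted libraries lay near the 2 lower control libraries. *Lbr* was at 1.89 to 4.48 CPM in KO CTR, against 2.70 to 3.10 CPM in KO noCys (-0.08, SE 0.36, adjusted p = 0.911).

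Among the 4 control genes, *Insig1* and *Insig2* parted. *Insig1* was at 210.1, 197.7, 159.9 and 141 CPM in KO CTR, against 68.2, 34.3 and 58.2 CPM in KO noCys, and it fell by 1.73 (SE 0.25, adjusted p = 8.46e-05). *Insig2* was at 142, 164, 132 and 136 CPM in KO CTR, against 162, 175 and 82.7 CPM in KO noCys, and its log2 fold change was -0.04 (SE 0.22, adjusted p = 0.934). Of the depleted livers, KO noCys 1 and 3 were within or above the range of the controls and KO noCys 4 was below all of them. *Srebf2*, which encodes SREBP2, was at 54.3, 51.7, 41.5 and 45.97 CPM against 27.1, 23.3 and 23.1 CPM and fell by 0.99 (SE 0.11, adjusted p = 9.49e-06). *Scap* fell by 0.34 (SE 0.088, adjusted p = 0.0107). The call was lost with library totals as the scaling (-0.21, adjusted p = 0.12) and in a fit of the compared groups alone, where the log2 fold change was as large (-0.35, adjusted p = 0.0529).

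**Figure D2:**
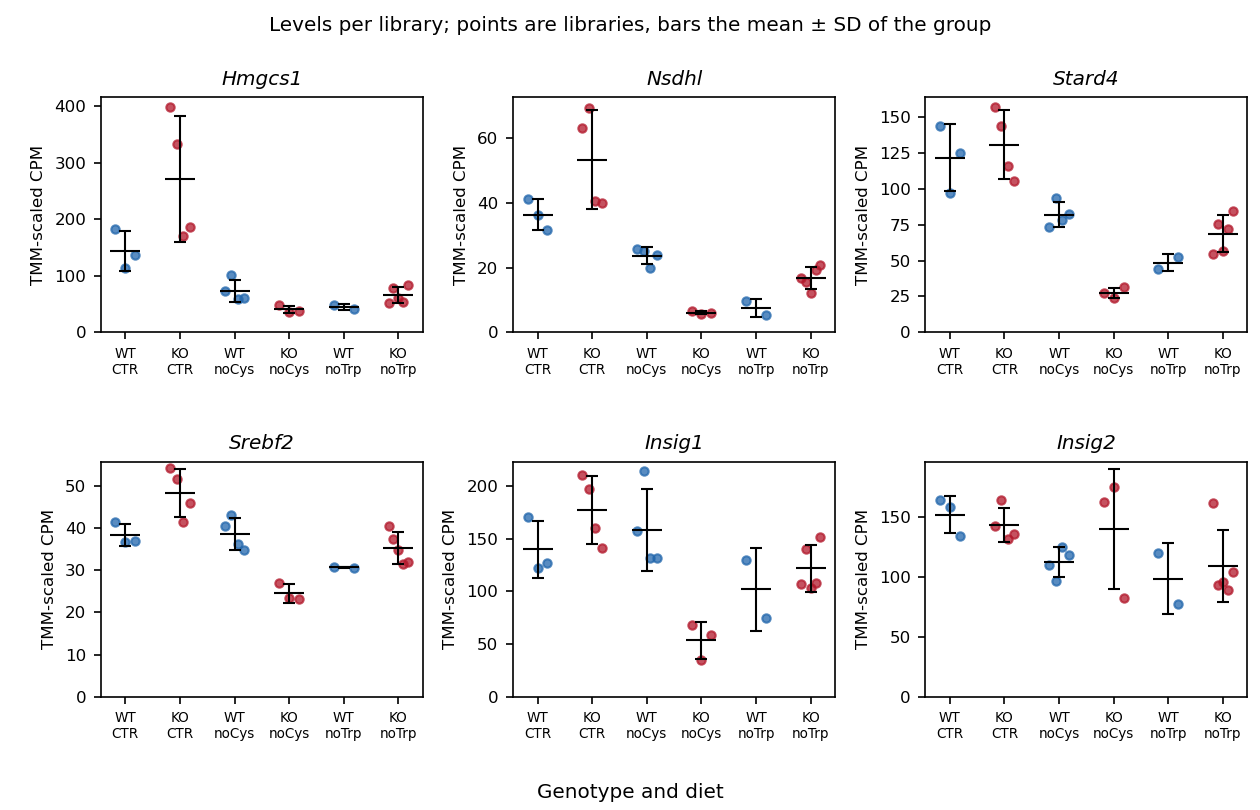
TMM-scaled CPM of 6 genes (vertical axes, from 0) in each library, by genotype and diet; points are libraries (blue WT, red KO) and bars the group mean ± SD. *Hmgcs1*, *Nsdhl*, *Stard4*, *Srebf2* and *Insig1* reach their lowest mean in KO noCys, while *Insig2* spans 82.7 to 175 CPM there.

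The uptake and transport genes did not move as a block. *Stard4*, a carrier that shuttles cholesterol between membranes, was at 157, 144, 116 and 106 CPM in KO CTR, against 27.1, 23.8 and 31.3 CPM in KO noCys, and it fell by 2.26 (SE 0.18, adjusted p = 1.89e-07). *Npc1*, which exports cholesterol from lysosomes, was at 83.8 to 129.8 CPM in KO CTR, against 103.9 to 119.3 CPM in KO noCys (log2 fold change 0.13, SE 0.16, adjusted p = 0.603). *Mylip*, a ubiquitin ligase that marks lipoprotein receptors for breakdown, was at 7.42 to 11.6 CPM and 9.38 to 12.97 CPM (0.14, SE 0.20, adjusted p = 0.657). Both ranges overlapped between the diets.

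**Figure D3:**
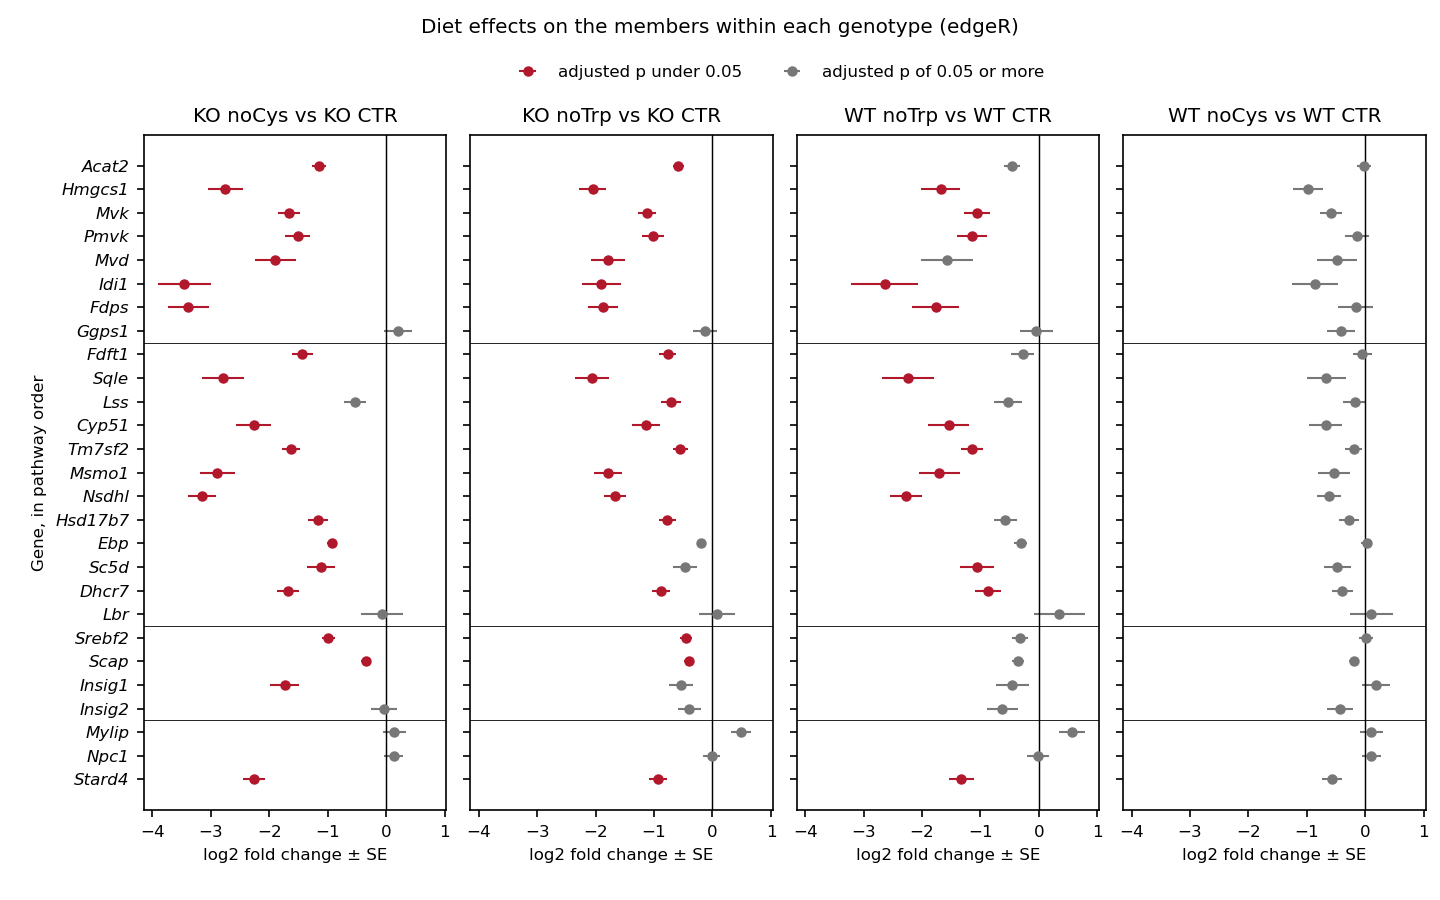
log2 fold change ± SE (horizontal axes) of each gene, in pathway order from top to bottom, for the depleted diets against CTR within KO and within WT; red marks an adjusted p under 0.05. Of the 27 genes, 21 are red in KO noCys, 19 in KO noTrp and 13 in WT noTrp, all to the left of 0, and none is red in WT noCys.

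In the comparison mice the same diet gave no call among the 27 genes. In WT noCys against WT CTR no gene was called (0.661% of all genes called, 0.39% higher), 9 were lower at an unadjusted p under 0.05 (13.9% of all genes in either direction), and the median log2 fold change was -0.28. DESeq2 called 2 and limma-voom 4, all lower. *Hmgcs1* was at 184, 113 and 136 CPM in WT CTR and at 73.5, 100.6, 58.9 and 59.96 CPM in WT noCys, which did not overlap, and its log2 fold change was -0.98 (SE 0.26, adjusted p = 0.0848). *Nsdhl*, *Sc5d*, *Scap*, *Insig2* and *Stard4* were likewise below every control library without being called, 6 genes in all, where 7.24% of all genes were, and none was above them, where 9.15% of all genes were. *Srebf2* (0.01, SE 0.11) and *Insig1* (0.18, SE 0.24) had log2 fold changes above 0.

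The effect of cysteine removal differed between the genotypes. The difference of differences was called in 18 of the 27 genes, each with the larger fall in KO, where 3.88% of all tested genes were called in that direction and 7.44% in either. The median was -1.29 over the 27 genes. It was largest in *Fdps* (-3.22, SE 0.46, adjusted p = 0.000418), *Idi1* (-2.59, SE 0.61, adjusted p = 0.0141), *Nsdhl* (-2.53, SE 0.31, adjusted p = 8.41e-05) and *Msmo1* (-2.35, SE 0.40, adjusted p = 0.00177). *Insig1* (-1.91, SE 0.34, adjusted p = 0.00255) and *Srebf2* (-0.996, SE 0.16, adjusted p = 0.00109) were among them and *Insig2* (0.40, SE 0.31, adjusted p = 0.47) was not. Without KO CTR 1 and 2, 14 genes were still called.

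**Figure D4:**
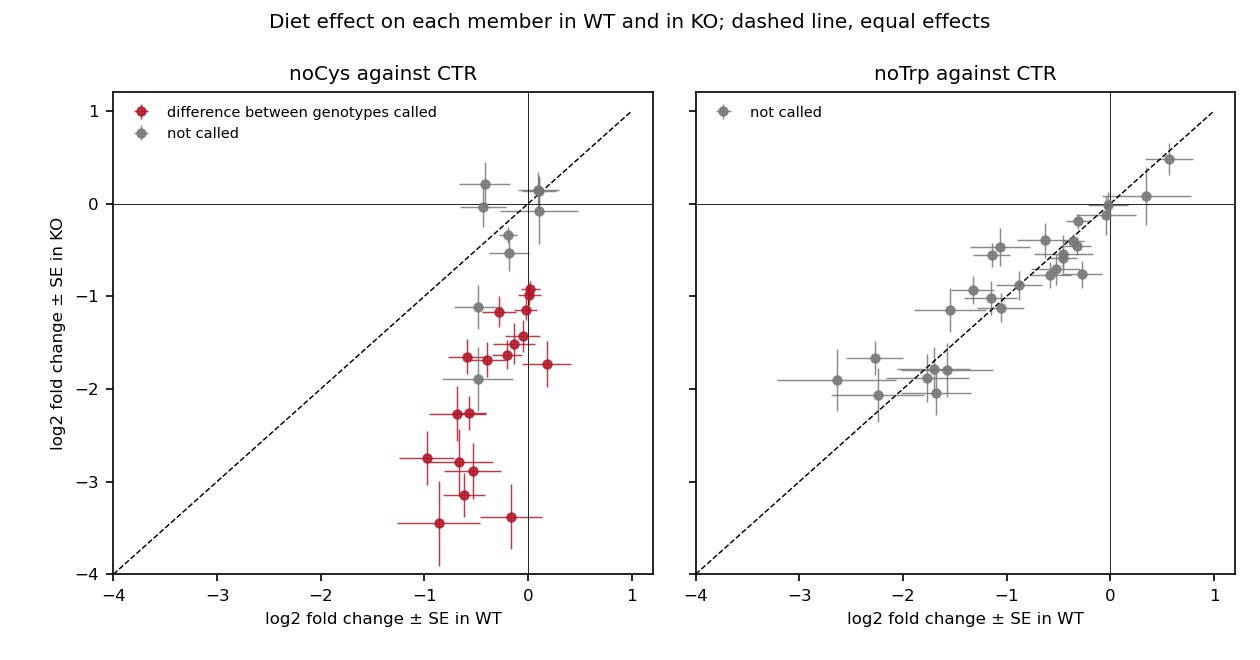
Each point is a gene, with its log2 fold change ± SE against CTR in WT (horizontal) and in KO (vertical), for noCys (left) and noTrp (right); the dashed line marks equal effects. For noCys the 18 red genes, called for a difference between genotypes, lie below the line, and for noTrp the points lie along it with none called.

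Set against each other on the diet without cysteine, KO livers were below WT livers in 18 genes and above in none (13.4% of all genes called lower, 28.2% in either direction). *Fdps* was at 4.67, 7.55, 5.13 and 4.03 CPM in WT noCys against 0.90, 1.05 and 1.22 CPM in KO noCys, and its log2 fold change was -2.28 (SE 0.35, adjusted p = 0.000103). *Stard4* was at 73.6, 93.6, 78.3 and 82.7 CPM against 27.1, 23.8 and 31.3 CPM (-1.58, SE 0.18, adjusted p = 4.21e-06). *Ebp* was at 237, 246, 236 and 238 CPM against 146, 119.1 and 139.7 CPM (-0.82, SE 0.093, adjusted p = 4.16e-06). None of these ranges overlapped. The sterol genes *Cyp51* (-0.74, SE 0.28, adjusted p = 0.0586, called lower under 5 of the 14 alternatives run), *Hsd17b7* (-0.36, SE 0.17, adjusted p = 0.109) and *Lss* (0.26, SE 0.19, adjusted p = 0.324) did not pass the test here, nor did *Mvd* (-0.25, SE 0.35, adjusted p = 0.626). *Sqle* was called (-1.05, SE 0.35, adjusted p = 0.0308) although its libraries overlapped, WT noCys 4 being at 9.57 CPM and KO noCys 3 at 9.77 CPM, and the call was lost under 8 of the 14 alternatives run. *Scap* (-0.25, SE 0.088) and *Mvk* (-0.51, SE 0.19) were each lost under 11 of the 14. Scaled by library totals alone, which moved the median of all genes to 0.20, 14 genes were called lower and *Ggps1* higher (0.64, adjusted p = 0.0438).

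Other features of these livers were measured in the same groups. The summed level of the 8 hepatocyte markers was 49698 to 79664 CPM in KO noCys, 79808 to 91687 CPM in KO CTR and 103566 to 116441 CPM in WT noCys. The 7 cholangiocyte and gallbladder markers summed to 16.9 to 18.7 CPM in KO noCys, 20.2 to 62.6 CPM in KO CTR and 34.7 to 58.9 CPM in WT noCys. The 5 endothelial markers summed to 85.5 to 93.6 CPM in KO noCys, 81.8 to 123.6 CPM in KO CTR and 97.1 to 142.1 CPM in WT noCys. The 7 erythroid markers summed to 128 to 158 CPM in KO noCys, 179 to 338 CPM in KO CTR and 183 to 375 CPM in WT noCys. No marker of these lists was at 0 in every library of a group named here. Mitochondrial transcripts took 3.77% to 5.51% of counts in KO noCys, 4.49% to 7.29% in KO CTR and 4.54% to 7.67% in WT noCys. Ribosomal RNA took 0.416% to 0.489% of counts in KO noCys, below the 0.535% to 0.998% in KO CTR and the 0.724% to 1.25% in WT noCys. Mitochondrial ribosomal RNA is part of both shares. Of 12 tested clock genes, 5 were lower in KO noCys than in WT noCys, where 13.4% of all genes were, among them *Hlf* (-0.74, SE 0.13, adjusted p = 0.000398) and *Cry1* (-0.75, SE 0.24, adjusted p = 0.0254), and 1, *Hlf*, was lower than in KO CTR (-0.44, SE 0.13, adjusted p = 0.023), a share near the 9.59% of all genes. Of 10 feeding-state genes, *Pck1* was lower (-0.64, SE 0.15, adjusted p = 0.0043) and *Cpt1a* higher (0.44, SE 0.13, adjusted p = 0.0177) in KO noCys than in WT noCys, a smaller share than the 28.2% of all genes, and *Pck1* was called in the interaction for noCys (-0.87, SE 0.22, adjusted p = 0.0188). The part of these features in the falls was not tested.

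Tryptophan removal, which asks what the loss of another amino acid does, also lowered the pathway in knockouts. In KO noTrp against KO CTR, 19 of the 27 genes fell and none rose, where 1.09% of all tested genes were called lower and 0.779% higher (1.87% in all), and the median log2 fold change was -0.76. *Hmgcs1* was at 52.0, 78.1, 61.4, 53.96 and 83.5 CPM in KO noTrp, all below the lowest KO CTR library at 169.7 CPM, and it fell by 2.05 (SE 0.23, adjusted p = 8.86e-05). *Sqle* was at 16.5, 16.2, 8.58, 11.96 and 15.4 CPM and fell by 2.06 (SE 0.29, adjusted p = 0.000685). *Nsdhl* was at 16.9, 15.5, 12.1, 19.3 and 20.7 CPM and fell by 1.67 (SE 0.18, adjusted p = 8.25e-05). In these 3 genes no KO noTrp library reached a control library. Across the set this held for 17 genes, against 3.15% of all genes.

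*Idi1* fell by 1.90 (SE 0.33), *Fdps* fell by 1.88 (SE 0.26), *Mvd* fell by 1.79 (SE 0.29), *Msmo1* fell by 1.79 (SE 0.24) and *Mvk* fell by 1.12 (SE 0.16). *Srebf2* fell by 0.45 (SE 0.097, adjusted p = 0.0178) and *Scap* fell by 0.41 (SE 0.077, adjusted p = 0.00794), while *Insig1* (-0.54, SE 0.21, adjusted p = 0.181) and *Insig2* (-0.40, SE 0.19, adjusted p = 0.304) did not pass the test. *Ebp* (-0.19, SE 0.079, adjusted p = 0.223) and *Sc5d* (-0.47, SE 0.20, adjusted p = 0.237) did not either. *Mylip* was at 11.8 to 16.0 CPM, above every KO CTR library, as were 3.17% of all genes, but was not called (0.48, SE 0.17, adjusted p = 0.152). Without KO CTR 1 and 2, 8 genes were called in place of 19, with a median of -0.52. *Sqle*, *Nsdhl*, *Msmo1*, *Mvk*, *Idi1*, *Fdps* and *Hmgcs1* were called under every alternative.

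WT livers without tryptophan showed falls too, from 2 libraries. In WT noTrp against WT CTR 13 genes fell, where 1.5% of all tested genes were called lower and 1.7% higher (3.19% in all), and none rose. The median log2 fold change was -0.88. *Nsdhl* was at 41.1, 36.4 and 31.6 CPM in WT CTR and at 9.52 and 5.45 CPM in WT noTrp, and it fell by 2.27 (SE 0.28, adjusted p = 0.000527). *Idi1* was at 4.98, 4.48 and 3.95 CPM against 0.54 and 0.90 CPM and fell by 2.64 (SE 0.57, adjusted p = 0.0186). *Sqle* was at 32.7, 22.3 and 27.1 CPM against 5.90 and 5.60 CPM and fell by 2.25 (SE 0.45, adjusted p = 0.0122). *Stard4* was at 143.6, 96.9 and 124.9 CPM against 44.2 and 52.7 CPM and fell by 1.33 (SE 0.21, adjusted p = 0.00394). The depleted pair was below all 3 controls in 21 genes, as were 15.3% of all genes.

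These WT calls changed with the method and the libraries. DESeq2 called 17 of the 27 genes, limma-voom 3, and a fit of the 2 groups alone 1 (*Sqle*), and none of the 13 was called under every alternative. The median log2 fold change moved less, to -0.91 by limma-voom and -0.88 in the fit of the 2 groups alone. WT noTrp 1 also stood apart in genes of the feeding state: *Igfbp1* was at 1946 CPM there against 206 CPM in WT noTrp 2 and at most 109.7 CPM in WT CTR, and *Ppp1r3g* at 459 against 11.9 CPM. In WT noTrp against WT CTR, *Igfbp1* (3.87, SE 0.86, adjusted p = 0.0189) and *Ppp1r3g* (4.73, SE 1.15, adjusted p = 0.0308) were called higher and the clock gene *Clock* lower (-0.64, SE 0.15, adjusted p = 0.0308). *Igfbp1* was at 527 to 772 CPM in KO noCys and at 81.8 to 371 CPM in KO CTR, and was not called between them. Without WT noTrp 1, 4 genes were called. Without WT noTrp 2, 7 genes were called lower and *Mylip* higher (0.88, adjusted p = 0.046). Without WT CTR 1, 7 were called. The 9 immune markers summed to 152 to 158 CPM in WT noTrp and 70.9 to 118.5 CPM in WT CTR, and to 117 to 183 CPM in KO noTrp and 65.6 to 142 CPM in KO CTR. The 6 stellate and fibroblast markers summed to 177 to 219 CPM in WT noTrp and 261 to 291 CPM in WT CTR, and the 7 adipocyte markers to 26.3 to 30.9 CPM and 14.3 to 21.3 CPM, with 3 adipocyte markers at 0 in every library of each group. Mitochondrial transcripts took 3.70% to 3.89% of counts in WT noTrp and 6.51% to 7.51% in WT CTR. Ribosomal RNA took 0.451% and 0.686% in WT noTrp, below the 0.854%, 1.01% and 8.38% in WT CTR. The part of these features in the falls was not tested.

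For tryptophan removal no difference between the genotypes was detectable. The difference of differences was called in none of the 27 genes, nor in any of all tested genes (0%), by edgeR. At an unadjusted p under 0.05 stood 1 of the 27 and 821 of all genes, and DESeq2 called 0 of the 27. The median was -0.07, and 0.25 without KO CTR 1 and 2. The 1 gene was *Tm7sf2* (0.59, SE 0.22, adjusted p = 0.769), named after its value was seen. On the diet itself, none of the 27 genes was called between KO noTrp and WT noTrp by edgeR (0.195% of all genes called, 0.0696% higher). Every KO library was above both WT libraries in 17 genes, as in 4.98% of all genes, and below them in 1, as in 4.97%. An unadjusted p under 0.05 was reached by 13, all higher in KO, and by 8.91% of all genes in either direction. *Nsdhl* (1.16, SE 0.25, adjusted p = 0.0586) and *Tm7sf2* (0.72, SE 0.17, adjusted p = 0.0758) came nearest, and DESeq2 called these and *Cyp51*.

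Without cysteine the knockout livers were lower than without tryptophan. In KO noCys against KO noTrp 13 of the 27 genes were called lower and none higher (6.75% of all genes called lower, 7.17% higher), with a median log2 fold change of -0.64. *Stard4* was at 54.4, 75.6, 56.5, 71.95 and 84.7 CPM in KO noTrp and at 27.1, 23.8 and 31.3 CPM in KO noCys (-1.32, SE 0.17, adjusted p = 6.93e-05). *Ebp* was at 241, 242, 207, 204 and 229 CPM against 146, 119.1 and 139.7 CPM (-0.74, SE 0.089, adjusted p = 4.21e-05). *Insig1* was at 106.7, 139.9, 103.3, 107.8 and 152 CPM against 68.2, 34.3 and 58.2 CPM (-1.19, SE 0.24, adjusted p = 0.00257). These groups did not overlap, nor did they in 17 of the 27 genes, all lower, where 9.55% of all genes were lower in this way. *Nsdhl* (-1.48, SE 0.22), *Tm7sf2* (-1.08, SE 0.15), *Acat2* (-0.56, SE 0.11) and *Srebf2* (-0.53, SE 0.11) were also lower under every alternative. *Hmgcs1* (-0.70, SE 0.26, adjusted p = 0.0788), *Sqle* (-0.73, SE 0.34, adjusted p = 0.157) and *Mvd* (-0.10, SE 0.33, adjusted p = 0.883), which fell on both diets, did not pass this test. *Hmgcs1* was called lower under 4 alternatives (DESeq2, limma-voom, the compared groups alone and no low-count filter). Without KO noCys 3, 7 genes were called. Marker sums of other cell types also parted these groups without overlap. The 9 immune markers summed to 82.7 to 93.4 CPM in KO noCys and 117 to 183 CPM in KO noTrp, the 5 endothelial markers to 85.5 to 93.6 CPM and 112 to 150.2 CPM, and the 7 cholangiocyte and gallbladder markers to 16.9 to 18.7 CPM and 25.7 to 49.3 CPM. The hepatocyte sums overlapped, at 49698 to 79664 CPM and 72289 to 96479 CPM. The part of these features in the difference was not tested.

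On the control diet most of the 27 genes had a higher mean in knockouts, without a call. In KO CTR against WT CTR none of the 27 genes was called by edgeR (0.32% of all genes called, 0.0696% higher) and 2 were by DESeq2, *Acat2* and *Msmo1*. The log2 fold change was below 0 in 7 of the 27, against 50.1% of all genes, and above 0 in 20. An unadjusted p under 0.05 was reached by 15 of the 20 and by 9.59% of all genes in either direction, and the median log2 fold change was 0.47. *Acat2* was at 57.4, 53.8, 44.7 and 45.4 CPM in KO CTR, against 36.96, 35.3 and 36.8 CPM in WT CTR (0.47, SE 0.11, adjusted p = 0.0795). *Mvd* was at 48.1, 32.6, 19.3 and 17.7 CPM against 17.5, 10.5 and 11.7 CPM (1.16, SE 0.34, adjusted p = 0.185). Every KO library was above every WT library in 6 genes, these and *Idi1*, *Sqle*, *Msmo1* and *Hsd17b7*, as in 5.39% of all genes, and no gene was below in every library, as were 5.53% of all genes.

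The KO CTR group itself was split. In 21 of the 27 genes both KO CTR 1 and KO CTR 2 were above both KO CTR 3 and KO CTR 4, as in 16.8% of all tested genes. The exceptions were *Idi1*, *Ebp*, *Lbr*, *Scap*, *Mylip* and *Npc1*. Leaving out KO CTR 1 and 2 took the median against WT CTR from 0.47 to 0.21 and the median of KO noCys against KO CTR from -1.51 to -1.19, where 20 genes were still called.

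Side by side, the 4 diet effects differed more in some steps than in others. *Ebp* fell in KO noCys (-0.93) and was at -0.19 in KO noTrp, -0.31 in WT noTrp and 0.02 in WT noCys. *Insig1* fell in KO noCys (-1.73) and was at -0.54, -0.45 and 0.18. *Fdft1* was at -1.43, -0.76, -0.28 and -0.05 in the same order, the first 2 being called. *Hmgcs1* was at -2.75, -2.05, -1.68 and -0.98, the first 3 being called. The 2 effects in KO share their control libraries, as do the 2 in WT. KO noCys against KO CTR and WT noTrp against WT CTR share none. All 13 genes called in WT noTrp (100%) were among the 21 called in KO noCys, of which they were 61.9%. With 21 of the 27 genes called in KO noCys, most of any 13 would be among them. KO noTrp against KO CTR shares no library with WT noTrp against WT CTR either, and its calls held 12 of the 13 (92.3%). No test of these overlaps was made. Of the 21, the 8 not called in WT noTrp were *Acat2*, *Mvd*, *Fdft1*, *Hsd17b7*, *Ebp*, *Srebf2*, *Scap* and *Insig1*. All of these but *Ebp* and *Insig1* were called lower in KO noTrp. DESeq2 called *Mvd*, *Acat2*, *Ebp* and *Scap* lower in WT noTrp. With 2 libraries there, a missing call does not show that a gene did not fall.

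Some levels are uncertain because the genes share sequence. Of the 50-base windows in annotated transcripts, 39.1% of those of *Acat2* also occur in other genes, mainly *Acat3*. The share was 26.5% for *Fdft1*, mainly with *Ctsb*, which overlaps it on the opposite strand, 26.2% for *Fdps* and 25.3% for *Idi1*, both mainly with other gene models, processed copies among them. For *Fdps* the copy *Gm3571* held more counts than the gene, at 25.1, 28.8, 14.96 and 19.3 CPM in KO CTR, against 3.16, 3.15 and 4.37 CPM in KO noCys, and fell by 2.63 (SE 0.31, adjusted p = 9.49e-06). *Acat3* fell by 0.88 (SE 0.095, adjusted p = 4.13e-06). These copies were named after their values were seen. *Pmvk*, *Mvd*, *Nsdhl*, *Hsd17b7*, *Ebp*, *Insig2* and *Stard4* shared no such window with another gene.

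Among other genes of sterol sensing, 11 listed proteins that process SREBP or sense sterols in the endoplasmic reticulum were tested. In KO noCys against KO CTR 1 of the 11 fell and 1 rose (list median 0.05), no larger a share than the 9.59% lower and 10.6% higher of all genes. *Tmem97*, a sterol-binding membrane protein, fell by 0.57 (SE 0.085, adjusted p = 0.000117), and *Syvn1*, a ubiquitin ligase of the endoplasmic reticulum, was at 193.9 ± 45.4 CPM (SD, n = 3) against 101 ± 7.54 CPM (n = 4) and rose by 0.94 (SE 0.21, adjusted p = 0.00417). *Tmem97* fell in KO noTrp too, by 0.42 (SE 0.073, adjusted p = 0.00417), and was the single gene of the list called in KO CTR against WT CTR, where it was higher (0.41, SE 0.084, adjusted p = 0.0398).

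Fatty acid synthesis is the branch run by the related factor SREBP1. In KO noCys against KO CTR 5 of 18 genes fell and none rose (list median -0.37), against 9.59% of all genes called lower and 10.6% higher. *Scd1*, the stearoyl-CoA desaturase, went from 3747 ± 1534 CPM (SD, n = 4) to 453 ± 332 CPM (n = 3) and fell by 3.05 (SE 0.57, adjusted p = 0.000866), *Elovl5* fell by 1.29 (SE 0.23, adjusted p = 0.000558) and *Acss2*, which makes acetyl-CoA from acetate, fell by 1.16 (SE 0.16, adjusted p = 5.76e-05). In KO noTrp against KO CTR 6 of 18 fell (1.09% of all genes called lower), among them *Scd1* and *Fasn*, the fatty acid synthase, the latter at -1.12 (SE 0.26, adjusted p = 0.0264). In WT noTrp against WT CTR 4 of 18 fell (1.5% of all genes called lower), among them *Elovl5* (-1.32, SE 0.28, adjusted p = 0.0156). In KO noCys against KO noTrp, where 7.17% of all genes were called higher and 6.75% lower, 3 of the 18 were higher and 1 lower. The higher genes were *Pklr* (1.201, SE 0.29, adjusted p = 0.00836), *Me1* (1.05, SE 0.27, adjusted p = 0.0132) and *Acaca* (0.80, SE 0.18, adjusted p = 0.00533), and the lower was *Fads1* (-0.50, SE 0.12, adjusted p = 0.011).

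Of 17 tested genes that dispose of cholesterol, 2 fell and 2 rose in KO noCys against KO CTR (list median 0.04), a share near that of all genes (9.59% lower, 10.6% higher). *Cyp7a1*, the rate-limiting enzyme of bile acid synthesis, fell by 1.78 (SE 0.45, adjusted p = 0.00898), from 142 ± 22.0 CPM (SD, n = 4) to 41.3 ± 19.5 CPM (n = 3), and *Cyp8b1*, which sets the kind of bile acid, fell by 2.01 (SE 0.37, adjusted p = 0.000736). *Soat2*, which esterifies cholesterol for storage and secretion, rose by 1.18 (SE 0.17, adjusted p = 8.4e-05), from 46.9 ± 6.57 to 106 ± 31.7 CPM, and *Abca1*, a cholesterol exporter, rose by 0.46 (SE 0.13, adjusted p = 0.0161). *Soat2* (1.15, SE 0.24, adjusted p = 0.00696) and *Abca1* (0.71, SE 0.18, adjusted p = 0.024) also differed between the genotypes in their response to noCys.

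Of 10 genes for lipoprotein receptors and sterol transfer, 3 rose and 2 fell in KO noCys against KO CTR, where 10.6% of all genes were called higher and 9.59% lower. *Gramd1c*, a sterol transfer protein of the endoplasmic reticulum, rose by 1.61 (SE 0.13, adjusted p = 1.45e-07), from 32.5 ± 1.90 CPM (SD, n = 4) to 99.1 ± 23.7 CPM (n = 3). *Vldlr*, a lipoprotein receptor, rose by 1.204 (SE 0.40, adjusted p = 0.0384) at a low level, from 2.75 ± 1.43 to 6.46 ± 2.11 CPM. *Lrp1*, another lipoprotein receptor, fell by 0.44 (SE 0.12, adjusted p = 0.0164), from 514 ± 52.7 to 379 ± 30.3 CPM. *Osbp*, an oxysterol-binding transfer protein, rose by 0.45 (SE 0.10, adjusted p = 0.00492) and *Lipa*, the lysosomal acid lipase, fell by 0.54 (SE 0.13, adjusted p = 0.00495). *Lipa* fell in KO noTrp (-0.51, SE 0.11, adjusted p = 0.0177) and WT noTrp (-0.66, SE 0.15, adjusted p = 0.0238) as well. In 10 genes that use isoprenoids for ubiquinone, dolichol or prenyl groups, 2 rose and 1 fell in KO noCys against KO CTR, where 20.2% of all genes were called in either direction. *Dhdds*, which builds dolichol chains, rose by 0.57 (SE 0.11, adjusted p = 0.00137), *Coq2*, of ubiquinone synthesis, rose by 0.36 (SE 0.085, adjusted p = 0.00531) and *Pdss2*, which makes the side chain of ubiquinone, fell by 0.47 (SE 0.16, adjusted p = 0.0385).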

How the data were processed

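Mouse liver was profiled in 21 libraries by paired-end, poly(A)-selected RNA-seq of RNA extracted with TRIzol. The authors aligned reads to GRCm38 with HISAT2 2.1.0 and counted them per gene with HTSeq 0.11.0, and the deposited values are raw counts per gene (names and versions from the submitters' processing notes and the methods). The annotation release and the strand setting are not given in the sources used here. The table held 46078 rows, of which 45143 were found in GENCODE M21. Rows not found there held 0.0715% of counts. 1 column that matched no sample was not used. The KO noCys replicates are numbered 1, 3 and 4, so a number is skipped there. Which library the unused column holds is not given by the labels. Depth was 8889951 to 27230852 counts, and precision was taken from the spread between libraries.

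Groups came from the labels. Genes were filtered (filterByExpr, minimum count 10, minimum total 15), leaving 14370, and scaled by TMM (factors 0.883 to 1.14). One model over the 6 groups was fitted with edgeR 4.0.16 (quasi-likelihood F-test, two-sided, R 4.3.3), with Benjamini-Hochberg adjustment over all tested genes and a threshold of 0.05. The interaction is the diet effect in KO minus that in WT. The code was tested on simulated data. Alternatives were DESeq2 1.42.0, limma 3.58.1 (voom with quality weights), other scalings, no filter, the compared groups alone, the replicate number as a block, and leaving out libraries. Leaving out both KO CTR 1 and 2 was chosen after seeing the data.

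All 27 genes were named, with the called genes of the other lists that changed most. The members and lists were chosen with earlier results of these data known. Sequence shared between genes was counted as 50-base windows of annotated transcripts. No 2 libraries of a group differed by as little as counting noise (chi-square per degree of freedom 11.5 or more).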

Additional observations from a re-analysis of the deposited data

Results flagged for a closer look

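In groups of 4 or 5 libraries, 7 of 81 gene-by-group sets held a library that stood apart from the rest by Dixon's criterion, which chance flags in about 1 in 20 sets. In WT noCys 2 these were *Idi1* at 4.73 CPM, *Lss* at 26.5 CPM, *Msmo1* at 121 CPM and *Ebp* at 246 CPM. The others were *Idi1* at 16.3 CPM in KO CTR 2, *Msmo1* at 80.1 CPM in KO noTrp 2 and *Insig2* at 161 CPM in KO noTrp 1.

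The response to cysteine removal differed between the genotypes in 18 genes by the interaction test (edgeR, adjusted p under 0.05), as a difference of log2 fold changes, KO minus WT. In the mevalonate steps it was -3.22 for *Fdps*, -2.59 for *Idi1*, -1.77 for *Hmgcs1*, -1.37 for *Pmvk*, -1.12 for *Acat2* and -1.06 for *Mvk*. In the sterol steps it was -2.53 for *Nsdhl*, -2.35 for *Msmo1*, -2.13 for *Sqle*, -1.58 for *Cyp51*, -1.43 for *Tm7sf2*, -1.38 for *Fdft1*, -1.29 for *Dhcr7*, -0.95 for *Ebp* and -0.88 for *Hsd17b7*. It was -1.91 for *Insig1*, -0.996 for *Srebf2* and -1.69 for *Stard4*.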

How the results depend on the processing

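No log2 fold change that was called turned its sign under an alternative. Under every alternative run, the call was kept by 13 of 18 genes in KO noCys against WT noCys, 19 of 21 in KO noCys against KO CTR, 7 of 19 in KO noTrp against KO CTR, 0 of 13 in WT noTrp against WT CTR, 7 of 13 in KO noCys against KO noTrp and 13 of 18 in the interaction for noCys. In KO CTR against WT CTR, where edgeR called 0 genes, 4 were called without the low-count filter and 2 by DESeq2. In KO noTrp against WT noTrp, 3 were called without the filter, 3 with the replicate block and 3 by DESeq2. In WT noCys against WT CTR, 1 was called without the filter, 2 with the compared groups only, 4 by limma-voom and 2 by DESeq2. In WT noTrp against WT CTR, in place of 13, 1 was called with the compared groups only and 3 by limma-voom. In KO noTrp against KO CTR, 8 were called without KO CTR 1 and 2, in place of 19. The cause was not tested. With 1 library left out at a time, the number called was 13 to 18 in KO noCys against WT noCys, 21 to 22 in KO noCys against KO CTR, 15 to 19 in KO noTrp against KO CTR, 4 to 11 in WT noTrp against WT CTR, 7 to 14 in KO noCys against KO noTrp, 0 to 1 in KO noTrp against WT noTrp and 14 to 18 in the interaction for noCys. Where an arm was left with 1 library, it was assumed to vary like the other groups. *Insig2* was called higher in KO noCys without KO noCys 4, against WT noCys (0.59, adjusted p = 0.0416 by edgeR) and against KO noTrp (0.63, adjusted p = 0.0457 by edgeR). No pairing by replicate number was seen. Over 41 same-numbered pairs the correlation of deviations from group means was -0.355 to 0.353, and over 0.1 in 9. Over 140 different-numbered pairs it was -0.384 to 0.24, and over 0.1 in 26. Deviations within such small groups are tied to each other, so this check is weak. The block moved no other count by over 1.5 times. Depth limits *Idi1*, *Fdps*, *Ggps1* and *Lbr*, at a few CPM or less in depleted livers.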
